A study of Homo sapiens with 4 samples.

Results

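The genes described here make cholesterol, bring it into the cell, move it between compartments and sense its level. They were chosen by name as 32 symbols, and each of the 32 was found among the 17791 genes of the counts table. RNA sequencing was done on engineered prostate cancer tissues (EPCaTs), in which PC-3 and BJ-5ta cells grow together in a hydrogel of poly(ethylene glycol) and fibrinogen (PF). PC-3 is a cell line from a bone metastasis of prostate cancer, and BJ-5ta is a line of telomerase-immortalised foreskin fibroblasts. The PF EPCaT had no added crosslinker, while the PF+2%PEGDA EPCaT held excess poly(ethylene glycol) diacrylate (PEGDA) at 2% (w/v) and the PF+3%PEGDA EPCaT at 3% (w/v). The added PEGDA served to change the mechanics of the gel. All 3 were seeded at 5 PC-3 cells to 1 BJ-5ta cell, kept in PC-3 medium with 10% fetal bovine serum and taken on day 15. The 4th group was a flat (2D) coculture of the same lines, for which the labels give neither day, cell ratio nor medium in coculture. No group received a further treatment.

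Each group had 1 library, and RNA for each EPCaT library was pooled from more than 2 tissues. No comparison therefore has replicates, no p-value between groups can be given, and the 95% intervals below cover counting error only. Libraries held 13760301 to 15687894 counts. Levels are CPM, counts per 1000000 of library size after scaling between libraries, and 1 count was worth 0.0599 to 0.0731 CPM. A gene is called higher or lower where 2 libraries differ by 2-fold or more and the interval excludes equality. All 32 genes passed the filter of 1 CPM in at least 1 library, which left 14856 genes of the table.

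Animal cells build cholesterol from acetyl-CoA. The mevalonate arm gives isoprenoid units, which are joined to squalene, closed to the ring of lanosterol and then trimmed to cholesterol. The transcription factor SREBP-2, encoded by SREBF2, drives these genes when sterols in the endoplasmic reticulum are low. SCAP escorts it to the Golgi apparatus for activation, and INSIG proteins hold it back when sterols are plentiful. Liver X receptors (LXRs) respond to oxysterols and drive genes of sterol export. Prostate cancer cells are known to make, take up and store cholesterol actively.

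Of these genes, 4 were called higher in the PF+3%PEGDA than in the PF EPCaT: MSMO1, NPC2, INSIG1 and CYP51A1. The bases before their start sites are shown because these genes were the ones called higher in this comparison. Shared control of the 4 genes was not tested. SREBP-2 is known to act beside the CCAAT-binding factor NF-Y and the GC-box factor Sp1. The sequences run 5′ to 3′ on the strand of the gene, are the first window listed for each gene in RefSeq (build GRCh38.p14), and end at the base before the start site. They lie at chr4:165327419-165327668 (plus strand) for MSMO1, chr14:74493513-74493762 (minus) for NPC2, chr7:155297628-155297877 (plus) for INSIG1 and chr7:92134478-92134727 (minus) for CYP51A1. The start sites are those of RefSeq, and GENCODE release 29, used for the gene coordinates below, starts all 4 genes further upstream. By those coordinates the NPC2 and CYP51A1 windows lie wholly inside the gene, and the MSMO1 and INSIG1 windows partly. Capitals mark CCAAT or its reverse complement ATTGG.
MSMO1: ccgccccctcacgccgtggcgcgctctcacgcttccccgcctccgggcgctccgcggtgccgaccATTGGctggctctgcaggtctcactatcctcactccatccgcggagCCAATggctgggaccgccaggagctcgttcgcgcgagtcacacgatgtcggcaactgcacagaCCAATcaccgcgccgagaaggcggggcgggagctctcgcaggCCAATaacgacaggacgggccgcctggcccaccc
NPC2: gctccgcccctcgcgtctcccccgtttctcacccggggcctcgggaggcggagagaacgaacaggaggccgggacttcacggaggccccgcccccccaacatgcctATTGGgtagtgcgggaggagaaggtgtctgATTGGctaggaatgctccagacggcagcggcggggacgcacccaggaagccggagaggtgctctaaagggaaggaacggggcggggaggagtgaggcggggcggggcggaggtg
INSIG1: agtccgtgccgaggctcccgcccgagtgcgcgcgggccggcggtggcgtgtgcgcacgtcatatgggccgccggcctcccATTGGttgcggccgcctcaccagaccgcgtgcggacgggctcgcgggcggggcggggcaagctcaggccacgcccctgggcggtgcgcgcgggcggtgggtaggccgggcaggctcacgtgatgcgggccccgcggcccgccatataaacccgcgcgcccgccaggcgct
CYP51A1: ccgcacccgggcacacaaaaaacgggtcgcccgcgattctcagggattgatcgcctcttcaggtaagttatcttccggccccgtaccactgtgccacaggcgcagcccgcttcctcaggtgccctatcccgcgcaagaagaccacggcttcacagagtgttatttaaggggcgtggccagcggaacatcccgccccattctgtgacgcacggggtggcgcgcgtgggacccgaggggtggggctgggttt

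MSMO1 holds 4 copies of CCAAT in either orientation, NPC2 2 and INSIG1 1, while CYP51A1 holds none in this window. Promoter windows of 300 bases (250 before and 50 after the start site) were found for 28 of the 32 genes. Those without an entry are ACAT2, FDFT1, SQLE and SCARB1. CCAAT, on either strand, was present in 20 of the 28 (71.4%), against 36.4% of 13326 promoters of genes in the counts table. It occurred in 12 of 16 enzymes of the synthesis path, and 2 or more copies were found in 9 of the 16 (56.2%), against 13.1% of the 13326. MVK and NSDHL had 5 copies each. With any listed window counted for each gene, 23 of the 28 held CCAAT. The GC box GGGCGG, on either strand, was in 25 of 28 (89.3%), against 65.6% of the promoters in the table. The sterol regulatory element form TCACNCCAC, on either strand, occurred once, in SREBF2 itself as TCACCCCAC starting 133 bases before the start site. That is 3.57% of the 28, against 1.06%. Other forms of the element were not searched and other windows were not counted, so this cannot show which genes lack such elements. The LXR-type direct repeat DR4, on either strand, was searched only as an exact repeat without mismatches. That form was in 0 of the 28 and in 0 of the 13326. Of all 35116 promoters in the reference, 7 held it (0.0199%). A form this rare cannot show whether the 28 lack LXR elements, and other forms were not searched. These matches describe letters in a window and do not show binding.

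The first comparison set the gels against each other and asked how sterol genes varied with the amount of PEGDA. The summed level of the synthesis enzymes was higher in the PEGDA gels, while 2 of the 19 enzymes were called singly with 3% PEGDA (3.59% of all genes) and 0 with 2% (2.98%). Summed over the 19 enzymes, the level was 1695 CPM in PF (interval 1676 to 1715), 2435 CPM with 2% PEGDA (2411 to 2460) and 3026 CPM with 3% PEGDA (2997 to 3055). In 2D the same sum was 1586 CPM (1566 to 1607), so by this sum the PF gel lay close to flat culture and both PEGDA gels above it. Single enzymes differed in both directions, with ratios of PF to 2D from 0.68 (DHCR7) to 2.03 (HMGCS1). The 18 enzymes without CYP51A1 gave 1536 CPM in PF, 2194 with 2% PEGDA, 2672 with 3% PEGDA and 1432 in 2D, which is the same order. Of all 32 genes, 26 had their highest level with 3% PEGDA, 4 in 2D, 1 with 2% PEGDA and 1 in PF.

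Against PF, the PF+3%PEGDA EPCaT had 4 of the 32 genes called higher, where 3.59% of all genes were, and 0 called lower, where 7.51% were. At a smaller size of 1.5-fold, 18 were higher (10.7% of all genes) and 1 was lower (15.4%). The median log2 ratio of the 32 was 0.69, and that of all genes tested was 0.00. For the 19 enzymes the median was 0.77, with 14 higher by 1.5-fold or more, and for the other 13 genes it was 0.43, with 4 higher. The PF+2%PEGDA EPCaT had 1 gene called higher than PF (2.98% of all genes), NPC2, and 0 lower (5.48%). At 1.5-fold 11 were higher (8.52%) and 0 lower (11.4%), and the median log2 ratio was 0.41. From 2% to 3% PEGDA no gene of the 32 was called in either direction at 2-fold (1.84% of all genes higher, 2.42% lower). None was at 1.5-fold (3.50% higher, 4.96% lower), and the median log2 ratio was 0.24. These 3 comparisons share libraries and are not independent of each other.

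**Figure D1:**
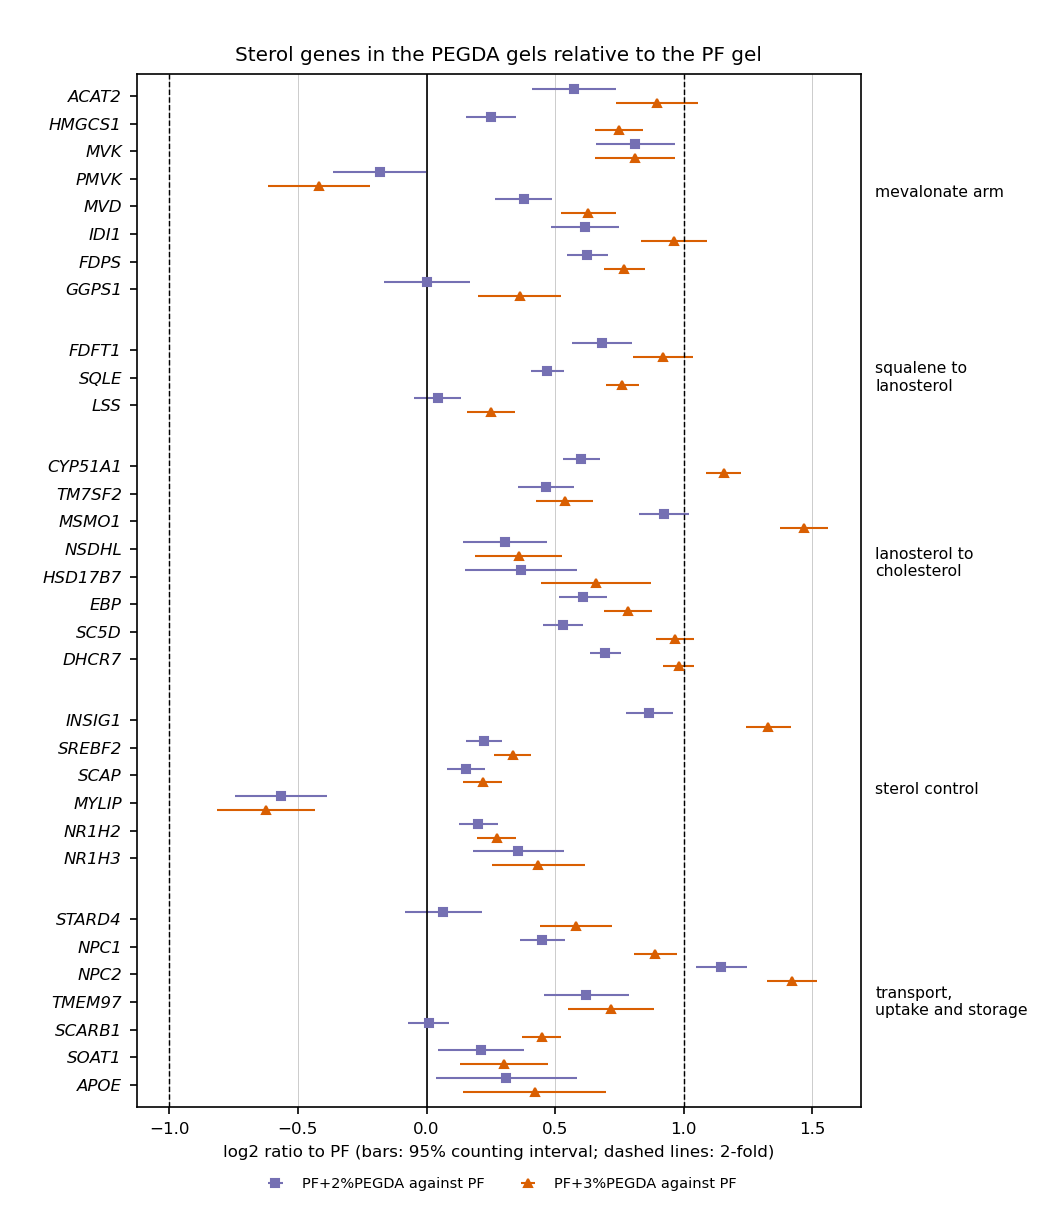
Log2 ratio of each of the 32 genes in the PF+2%PEGDA (squares) and PF+3%PEGDA (triangles) libraries to the PF library, grouped by role, with 95% counting intervals as bars and dashed lines at 2-fold. MSMO1, NPC2, INSIG1 and CYP51A1 lie beyond 2-fold with 3% PEGDA, and PMVK and MYLIP are the genes to the left of 0.

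The mevalonate arm held 8 of the genes, and 6 of them were higher by 1.5-fold or more with 3% PEGDA than in PF (10.7% of all genes). ACAT2, which joins 2 acetyl-CoA to acetoacetyl-CoA in the cytosol, measured 32.01 CPM in PF, 47.6 with 2% PEGDA, 59.5 with 3% PEGDA and 21.8 in 2D. HMGCS1, the HMG-CoA synthase of the cytosol, measured 97.04, 115.5, 162.9 and 47.9 CPM in that order. IDI1, which isomerises the first isoprenoid unit, measured 48.0, 73.6, 93.6 and 41.6 CPM. In all 3 genes 2D was the lowest library and 3% PEGDA the highest. FDPS, farnesyl diphosphate synthase and the gene of this arm with the most counts, measured 131.3, 202.6, 223.7 and 138.2 CPM, so PF and 2D were close. Its ratio of 3% PEGDA to PF was 1.70. MVK and MVD, mevalonate kinase and mevalonate diphosphate decarboxylase, had ratios of 1.75 and 1.55. MVK differed between PF and 2% PEGDA (33.8 and 59.2 CPM) and not between 2% and 3% (ratio 0.9995). GGPS1, which makes the precursor for protein geranylgeranylation and is a branch off the path, ran from 36.0 to 47.8 CPM over the 4 libraries. PMVK, phosphomevalonate kinase, went the other way: 33.5, 29.5 and 25.1 CPM from PF to 3% PEGDA and 38.0 CPM in 2D. Its level with 3% PEGDA was 1.34-fold below PF (interval 1.17 to 1.53), under the size rule.

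FDFT1, SQLE and LSS carry the path from farnesyl diphosphate to lanosterol. SQLE, squalene epoxidase, a slow step of the path, measured 206.1, 285.6 and 349.4 CPM from PF to 3% PEGDA and 158.6 CPM in 2D. FDFT1, squalene synthase, measured 59.8, 96.0, 113.1 and 56.8 CPM in the same order. Their ratios of 3% PEGDA to PF were 1.70 (interval 1.62 to 1.77) and 1.89 (1.75 to 2.05), both under the size rule. LSS, lanosterol synthase, was flatter among the gels, at 116.6, 120.1 and 138.7 CPM, and had 78.2 CPM in 2D.

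The 8 enzymes that turn lanosterol into cholesterol had the highest median of the role groups between the end gels, 0.87. Of these, 2 were called higher (3.59% of all genes) and 6 were higher by 1.5-fold or more (10.7%). MSMO1, the methylsterol oxidase that removes methyl groups at carbon 4 (chromosome 4, 165327623 to 165343160, GRCh38), measured 81.1 CPM in PF, 153.7 with 2% PEGDA, 224.4 with 3% PEGDA and 85.2 in 2D. It was 2.77-fold higher with 3% PEGDA than in PF (interval 2.60 to 2.95). CYP51A1, the lanosterol demethylase (chromosome 7, 92112151 to 92134803), measured 158.9, 241.1, 353.9 and 154.2 CPM and was 2.23-fold higher (2.12 to 2.34). In both genes PF and 2D lay within 10% of each other and the 2 PEGDA gels lay above them. Of the 50-base stretches of CYP51A1 transcripts, 81.1% occur also in other annotated genes, most of them in an overlapping gene model and some in its pseudogenes, so its counts are uncertain.

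DHCR7, which carries out the last reduction to cholesterol (chromosome 11, 71428193 to 71452868), measured 223.8, 362.1, 441.5 and 330.8 CPM. With 3% PEGDA it was 1.97-fold above PF (interval 1.89 to 2.06). Unlike MSMO1, its 2D level lay between PF and 2% PEGDA. SC5D, the sterol desaturase before it, measured 141.5, 204.3, 276.3 and 101.9 CPM, with a ratio of 1.95 between the end gels. TM7SF2, a sterol reductase, measured 72.4, 99.9, 105.0 and 44.8 CPM. EBP, the sterol isomerase, HSD17B7 and NSDHL, 2 enzymes of the demethylation at carbon 4, had ratios of 1.72, 1.58 and 1.28 between the end gels.

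Per length, DHCR7 had the highest level of the 32 genes in each of the 4 libraries, from 53.8 CPM per kilobase of exon in PF to 106.1 with 3% PEGDA. With 3% PEGDA it was followed by CYP51A1 at 98.8, SQLE at 81.2, MSMO1 at 77.6 and NPC2 at 71.8 CPM per kilobase. In PF the order after DHCR7 was SQLE at 47.9, NR1H2 at 44.6 and CYP51A1 at 44.3, so neighbours differed little. HSD17B7 and SOAT1 were the lowest in PF, at 4.03 and 4.83 CPM per kilobase.

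**Figure D2:**
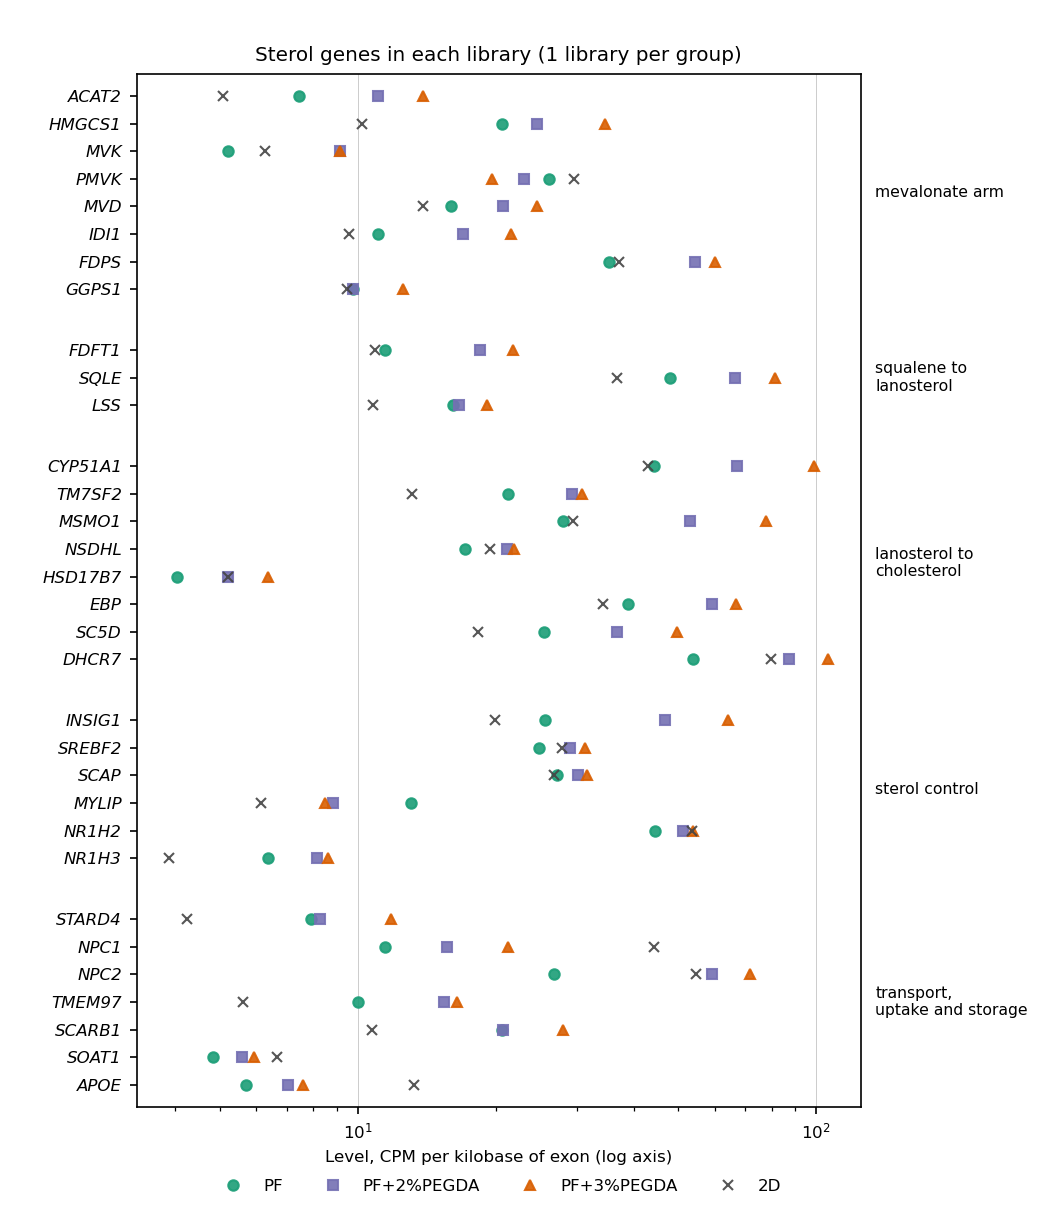
Level of each of the 32 genes in CPM per kilobase of exon (log axis) in the PF (circles), PF+2%PEGDA (squares), PF+3%PEGDA (triangles) and 2D (crosses) libraries, 1 library per group, grouped by role. The triangle is the rightmost mark for 26 of the genes, and NPC1, APOE, PMVK and SOAT1 have the cross at the right.

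Among the genes of sterol control, INSIG1 differed most between the end gels. INSIG1, which retains the SCAP complex and is itself a target of SREBP-2 (chromosome 7, 155297776 to 155310235), measured 93.4 CPM in PF, 170.3 with 2% PEGDA, 234.9 with 3% PEGDA and 72.6 in 2D. It was 2.51-fold higher with 3% PEGDA than in PF (interval 2.37 to 2.67). SREBF2, the factor and the gene of this group with the most counts, measured 187.9, 219.4, 237.0 and 210.9 CPM in the same order, with a ratio of 1.26 between the end gels (interval 1.2 to 1.33). SCAP, its escort, ran from 172.2 to 203.3 CPM over the 4 libraries. NR1H2 and NR1H3 encode LXR-beta and LXR-alpha. NR1H2 ran from 167.3 to 202.1 CPM, and NR1H3 measured 28.9 CPM in PF, 37.0 with 2% PEGDA, 39.1 with 3% PEGDA and 17.6 in 2D. MYLIP, an LXR target that encodes a ubiquitin ligase for lipoprotein receptors, was highest in PF. Its levels were 39.7, 26.8, 25.8 and 18.7 CPM, and with 3% PEGDA it was 1.54-fold below PF (interval 1.35 to 1.76), under the size rule.

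Of the 7 genes of transport, uptake and storage, NPC2 was called higher with 3% PEGDA than in PF (3.59% of all genes). At 1.5-fold or more 3 were higher (10.7%). NPC2 and NPC1 encode the soluble and the membrane protein that pass cholesterol out of the lysosome. NPC2 (chromosome 14, 74476192 to 74494177) measured 73.7, 163.2, 197.3 and 150.4 CPM, so PF was the low library and the other 3 lay near each other. It was 2.21-fold higher than PF with 2% PEGDA (interval 2.07 to 2.37) and 2.68-fold with 3% (2.50 to 2.87). NPC1 (chromosome 18, 23506184 to 23586898) measured 115.9, 158.4, 214.7 and 448.0 CPM, with a ratio of 1.85 between the end gels (1.75 to 1.96). TMEM97, the sigma-2 receptor that binds NPC1, measured 30.4, 46.8, 49.95 and 17.1 CPM. SCARB1, the receptor for high-density lipoprotein, had 159.4, 160.3, 217.4 and 83.3 CPM, and the sterol carrier STARD4 had 45.01, 47.1, 67.3 and 24.1 CPM. In these last 2 genes PF and 2% PEGDA were close and 3% PEGDA was above both. SOAT1, which esterifies cholesterol for storage, ran from 33.8 to 46.6 CPM. APOE, a lipoprotein component, measured 12.5, 15.4, 16.7 and 29.03 CPM, and both were lowest in PF and highest in 2D.

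**Figure D3:**
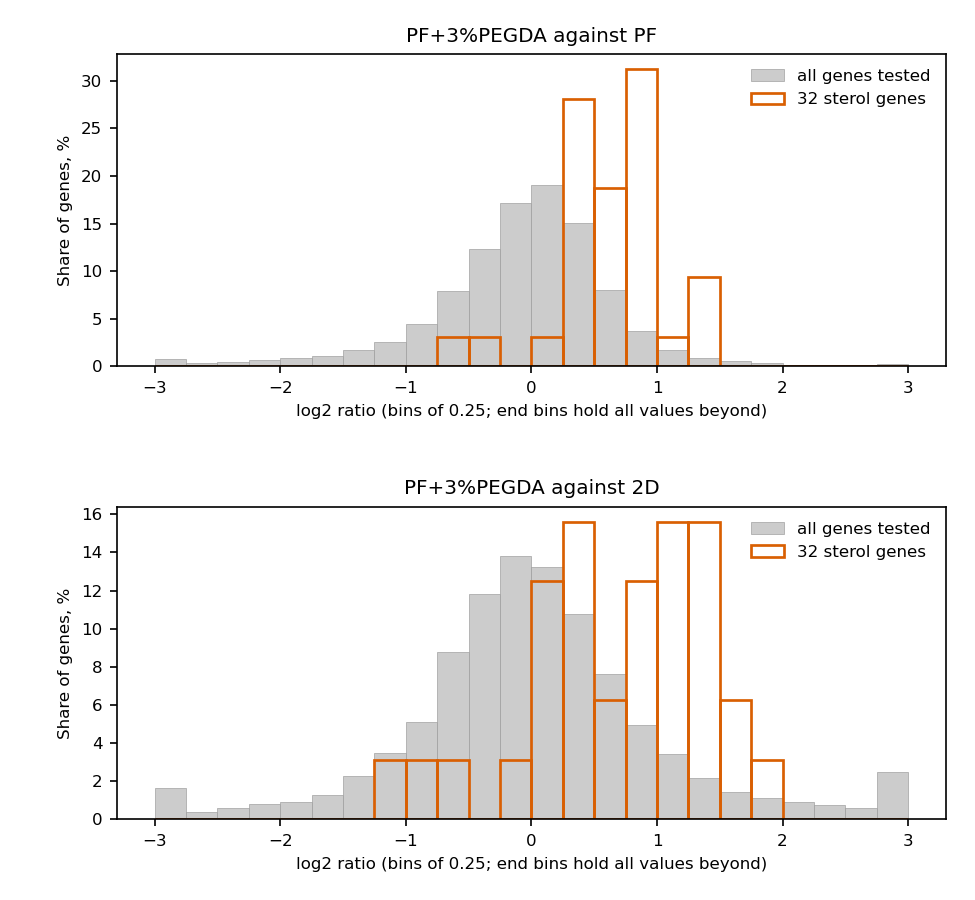
Share of genes (percent) by log2 ratio in bins of 0.25, for all 14856 genes tested (grey) and the 32 sterol genes (orange outline), in the PF+3%PEGDA library against PF (top) and against 2D (bottom). Against PF, 10 of the 32 genes fall between 0.75 and 1, just under 2-fold.

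The second comparison set each gel against the 2D coculture and asked how sterol genes differed from flat culture. All 3 ratios share the 2D library. In the PF EPCaT, HMGCS1 and MYLIP were called higher, 2 of 32 where 16.2% of all genes were, and NPC1, NPC2 and APOE lower, 3 of 32 where 12.3% were. The median log2 ratio was 0.06, beside 0.01 for all genes tested. At 1.5-fold 7 were higher (25.5%) and 3 lower (22.6%). Scaling by library totals alone gave 5 higher and 2 lower at 2-fold, with STARD4, TMEM97 and SCARB1 added, and without the trend of ratios with gene length and GC content they were 2 higher and 1 lower. In the PF+2%PEGDA EPCaT 7 were higher (12.3% of all genes) and 1 lower (9.65%), with a median of 0.60, and at 1.5-fold 16 were higher (20.3%) and 2 lower (18.7%). In the PF+3%PEGDA EPCaT 13 were higher (11.8% of all genes) and 1 lower (10.7%), with a median of 0.83, and at 1.5-fold 18 were higher (20.1%) and 3 lower (20.1%).

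HMGCS1 was 2.03-fold (interval 1.85 to 2.22), 2.41-fold (2.21 to 2.63) and 3.40-fold (3.12 to 3.71) higher than 2D in the PF, 2% PEGDA and 3% PEGDA gels. INSIG1 was 3.24-fold higher than 2D with 3% PEGDA (interval 3.02 to 3.47) and 2.35-fold with 2% (2.19 to 2.52), with a ratio of 1.29 in PF. Of the 19 enzymes, 1 was called higher than 2D in PF, 4 with 2% PEGDA and 8 with 3% PEGDA, where 16.2%, 12.3% and 11.8% of all genes were. The 8 were ACAT2, HMGCS1, IDI1, SQLE, CYP51A1, TM7SF2, MSMO1 and SC5D, at 2.20- to 3.40-fold. SC5D with 2% PEGDA stood at the threshold (2.01-fold) and lay under it with DESeq2 size factors and with the length and GC trend removed (log2 ratios of 0.998 and 0.953). With 3% PEGDA, the genes called higher outside the path were INSIG1, NR1H3, STARD4, TMEM97 and SCARB1. TMEM97 was 2.93-fold higher (interval 2.53 to 3.40), STARD4 2.79-fold (2.47 to 3.17), SCARB1 2.61-fold (2.44 to 2.79) and NR1H3 2.22-fold (1.91 to 2.59). TMEM97 and NR1H3 were called with 2% PEGDA too, at 2.74-fold and 2.10-fold. In PF these 4 ratios were 1.64 to 1.91, all above 1.5 and under the size rule. MYLIP was 2.12-fold higher than 2D in PF (interval 1.84 to 2.45), with ratios of 1.44 and 1.38 in the PEGDA gels.

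NPC1 was lower than 2D in each gel, by 3.86-fold in PF (interval 3.67 to 4.07), 2.83-fold with 2% PEGDA (2.70 to 2.96) and 2.09-fold with 3% PEGDA (2.00 to 2.18). Its partner NPC2 was 2.04-fold lower in PF (1.90 to 2.19), and had ratios of 1.09 and 1.31 in the PEGDA gels. APOE was 2.33-fold lower in PF (1.97 to 2.76), with ratios of 0.532 and 0.575 in the others. With total counts the PF call of NPC2 and the 3% PEGDA call of NPC1 were lost, at log2 ratios of -0.84 and -0.97. With the length and GC trend removed, the PF calls of NPC2 and APOE were lost (-0.91 and -0.94).

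**Figure D4:**
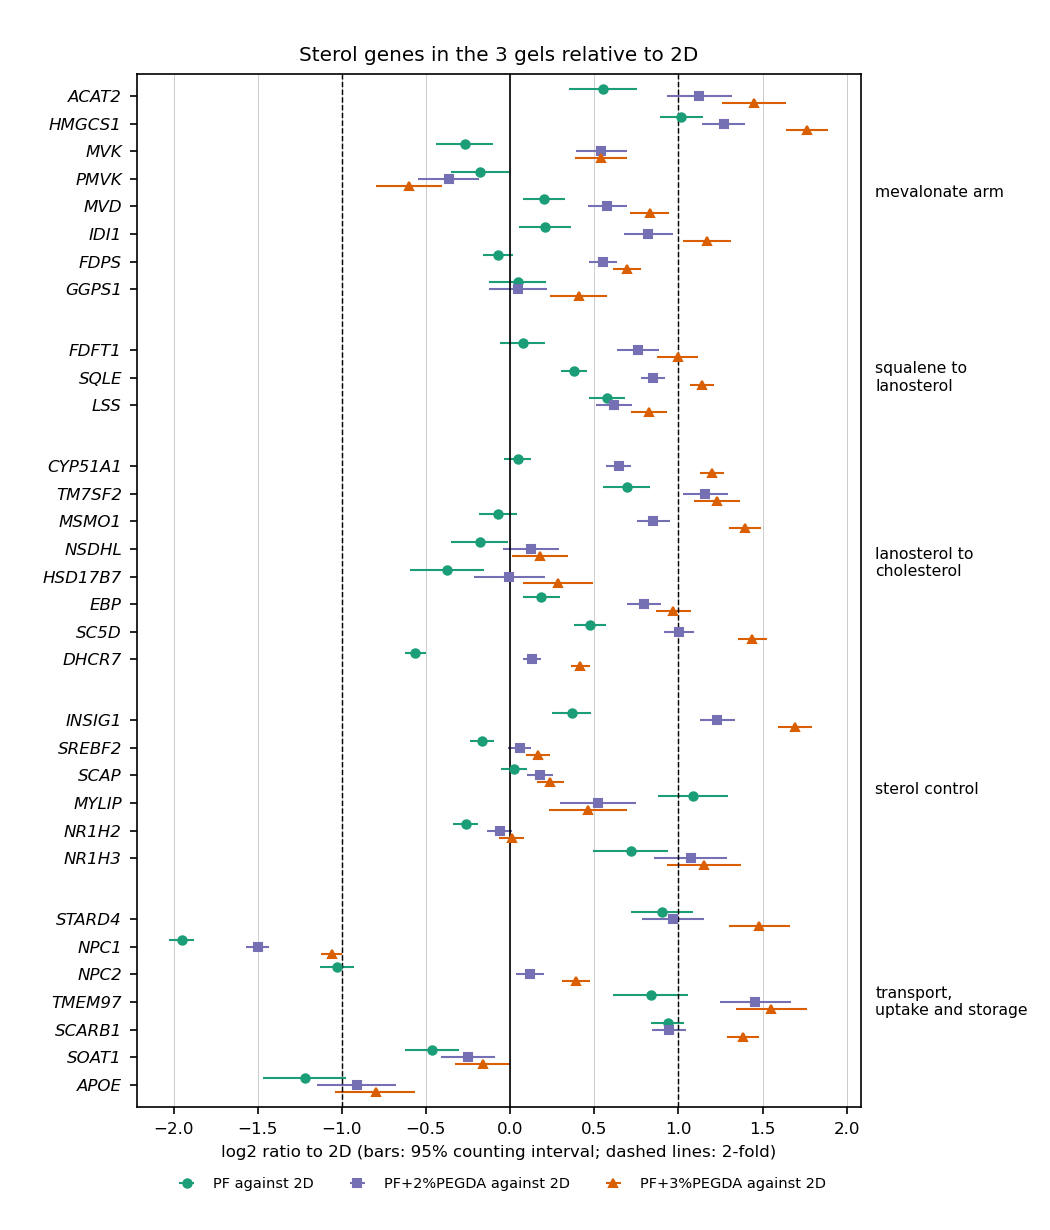
Log2 ratio of each of the 32 genes in the PF (circles), PF+2%PEGDA (squares) and PF+3%PEGDA (triangles) libraries to the 2D library, with 95% counting intervals as bars and dashed lines at 2-fold. HMGCS1 lies beyond 2-fold to the right in each gel and NPC1 beyond 2-fold to the left in each gel.

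Markers of both cell lines moved with the comparison to 2D. In bulk RNA, fewer cells of a type and less RNA per cell cannot be told apart. Of 15 fibroblast markers, 13, 11 and 11 were lower than 2D in the PF, 2% PEGDA and 3% PEGDA gels and 0 were higher. Of all genes, 12.3%, 9.65% and 10.7% were lower and 16.2%, 12.3% and 11.8% higher. Their summed level was 1362, 1792 and 1375 CPM in the gels and 7341 CPM in 2D, and POSTN had 0 counts in both PEGDA gels. CTNNA1, which is deleted in PC-3 and so marks BJ-5ta, measured 5.40, 6.18 and 8.27 CPM from PF to 3% PEGDA and 33.3 CPM in 2D. Of 10 epithelial markers, 4, 6 and 6 were higher than 2D and 0 lower, beside the same shares of all genes. Their summed levels were 5310 CPM in PF, 6164 with 2% PEGDA, 5773 with 3% PEGDA and 3861 in 2D. The part of these markers in the sterol gene ratios was not tested. Between the PF and PF+3%PEGDA gels the fibroblast sums were 1362 and 1375 CPM, but single markers moved in both directions. COL1A2 was called lower with 3% PEGDA (121.4 and 49.4 CPM, 2.46-fold) and 0 were called higher, where 7.51% and 3.59% of all genes were. At 1.5-fold 3 of the 15 were higher (10.7% of all genes) and 3 lower (15.4%), and the median log2 ratio was -0.32. SPARC, the marker with the highest ratio, measured 208.0 CPM in PF, 480.8 with 2% PEGDA and 390.9 with 3% PEGDA, and the ratio of CTNNA1 between the end gels was 1.53. The part of these differences in the gel ratios of the sterol genes was not tested. None of the 10 epithelial markers was called between these gels. Of 6 endothelial and blood cell markers, types not seeded here, 4 were in the table. Their summed level was 121.0 to 154.4 CPM in the 4 libraries, and its parts went opposite ways. PECAM1 and LYZ were called higher than 2D in each gel, where LYZ rests on 4 counts in 2D. VWF did not pass the filter, with 3, 2 and 2 counts from PF to 3% PEGDA and 0 in 2D. CD68 measured 53.2, 55.2 and 66.4 CPM from PF to 3% PEGDA and 118.9 CPM in 2D, and was called lower than 2D in PF (2.23-fold) and with 2% PEGDA (2.16-fold). Of the 50-base stretches of CD68 transcripts, 78.2% occur also in other annotated genes, so its counts are uncertain.

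Other genes of the sterol pathway were followed in lists of 63 genes, of which 58 were tested. With 3% PEGDA against PF, 2 of the 58 were called higher and 1 lower, beside 3.59% and 7.51% of all genes, and the median log2 ratio was 0.19, beside 0.69 for the 32 genes. None of 9 genes of sterol sensing and SREBP processing was called between these gels (median 0.31). The 2nd INSIG gene, INSIG2, measured 105.7, 130.6, 150.8 and 40.5 CPM, and was 3.73-fold higher than 2D with 3% PEGDA (interval 3.40 to 4.09). SREBF1, which encodes the SREBP form that favours fatty acid genes, ran from 169.5 to 210.2 CPM.

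Among 19 tested genes of sterol transport and esters the median between the end gels was -0.04. VLDLR was called higher and ABCG1 lower, beside 3.59% and 7.51% of all genes. VLDLR, a lipoprotein receptor, measured 6.35, 10.9, 15.8 and 5.68 CPM, a ratio of 2.49 between the end gels (interval 1.96 to 3.17). ABCG1 and ABCA1 export cholesterol and are LXR targets. ABCG1 measured 27.2, 16.7, 13.4 and 67.6 CPM, 2.03-fold lower with 3% PEGDA than in PF (interval 1.71 to 2.43), a call lost with the length and GC trend removed (log2 ratio -0.90). ABCA1 measured 79.1, 56.8, 48.9 and 46.2 CPM. Both were highest in PF among the gels, as MYLIP was. PLTP and LPCAT3, also listed as LXR targets, and APOE went the other way and were lowest in PF among the gels. Of the 7 LXR targets listed outside the 32 genes, ABCG1 was the one called between the end gels (median -0.07). Ratios of 3% PEGDA to PF were above 1 for PLTP (1.52), LPCAT3 (1.26) and SMPDL3A (1.18). They were below 1 for ABCA1 (0.618), SREBF1 (0.952) and APOC1 (0.610, with 6 counts in PF and 3 with 3% PEGDA). The intervals of SMPDL3A, SREBF1 and APOC1 included equality. Against 2D, ABCG1, CAV1, NCEH1 and OSBPL6 of the transport list were called lower in each gel. GRAMD1C, of a family of sterol transfer proteins, was called higher in each. From PF to 3% PEGDA, 12.3%, 9.65% and 10.7% of all genes were lower than 2D and 16.2%, 12.3% and 11.8% higher. CAV1, the coat protein of caveolae, measured 67.6, 119.0, 108.3 and 376.1 CPM. NCEH1, a cholesteryl ester hydrolase, measured 50.6, 62.0, 54.3 and 156.4 CPM. None of 10 genes of the isoprenoid branch was called among the gels (median 0.17 between the end gels), and PGGT1B, a subunit of an enzyme that attaches isoprenoid groups to proteins, was called higher than 2D in each. With the length and GC trend removed that call was lost in PF and with 3% PEGDA (log2 ratios 0.92 and 0.98). Of 5 oxysterol enzyme genes 3 were tested, and none was called between the end gels (median 0.53).

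Fatty acid synthesis is the lipid pathway most like this one and is driven by the related factor SREBP-1. Of its 15 genes 13 were tested. Between the end gels 1 was called higher, SCD, where 3.59% of all genes were, and 0 lower, where 7.51% were. The median was 0.41, beside 0.77 for the 19 cholesterol enzymes. The call of SCD was lost with total counts as library size (log2 ratio 0.95), and with the length and GC trend removed FADS2 was called too (1.11). SCD, the stearoyl-CoA desaturase, measured 1023, 1458, 2116 and 1013 CPM, so PF and 2D were again close. FADS2, a desaturase of polyunsaturated fatty acids, measured 766.5, 1033, 1300 and 479.0 CPM, a ratio of 2.71 between 3% PEGDA and 2D (interval 2.64 to 2.79). GPAM, which starts glycerolipid synthesis, measured 25.2, 24.3, 25.2 and 11.7 CPM. It was called higher than 2D in each gel, where 16.2%, 12.3% and 11.8% of all genes were from PF to 3% PEGDA. Those GPAM calls were lost with the length and GC trend removed (log2 ratios 0.95 to 0.99). ACACA, acetyl-CoA carboxylase, measured 94.9, 86.4, 79.9 and 63.1 CPM. With 1 library per group, the difference between the medians of the 2 pathways was not tested.

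Overlapping transcripts limit some values, since the libraries do not record strand. In ACAT2 49.6% and in GGPS1 39.0% of 50-base stretches occur in other annotated genes, most of them neighbours. For 12 of the 19 enzymes this share was under 10%.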

How the data were processed

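RNA was sequenced from 3 EPCaTs and a 2D coculture, with 1 library per group, grouped by their labels. Libraries were made with a TruSeq RNA kit v2, per the labels' protocols. The authors deposited 1 table of expected counts (estimated read counts per gene), in which 18.2% to 19.9% of values per library departed from whole numbers by more than 0.01. FastQC, STAR and Partek with build hg38 are named, per the submitters' processing notes. Versions, annotation and counting method are not given in the sources used here. Counts were rounded. Scaling between libraries used TMM factors (edgeR 4.0.16, R 4.3.3). Genes with 1 CPM in at least 1 library were kept, and log2 ratios used a prior count of 0.5 with exact Clopper-Pearson 95% intervals of the ratio. Summed levels have exact Poisson intervals. A call needs 2-fold and an interval that excludes equality. Exon lengths, coordinates and shared 50-base stretches came from GENCODE release 29 (GRCh38), where 16628 symbols matched by name and chromosome. Promoter windows came from RefSeq. Scripts ran in Python 3.11.15 with pandas 2.3.3, scipy 1.17.1 and numpy 2.4.6, and figures were drawn with matplotlib 3.10.9.

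The members and lists were chosen with earlier results of these data known. All 32 members are named. Values are given in full for those called in any of 6 pairs and for the member with the most counts in each role. Up to 4 called genes per related list and pair were named, by the interval bound nearest to equality. SREBF1, ABCA1, ACACA, PLTP, LPCAT3, SMPDL3A and APOC1 were named after their values were seen. Other settings tried were total counts as library size, size factors of DESeq2 1.42.0, no filter or a filter of 5 CPM, calls at 1.5-fold, a prior count of 2, removal of the trend with length and GC, and leaving out genes with 50% or more shared stretches.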

Additional observations from a re-analysis of the deposited data

How the results depend on the processing

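No paired analysis was possible because each group has 1 library. Depth and the single library per group limit every ratio to a comparison of 2 libraries, and counting intervals do not include variation between cultures. Total counts as the only scaling moved the median of all genes by 0.19 for PF against 2D and by 0.12 for PF+2%PEGDA against 2D. The cause of the changes below was not tested, apart from calls at 1.5-fold, which by construction admit more genes.

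For the 32 sterol genes, no called ratio changed direction under the alternatives run. With calls at 1.5-fold, the numbers higher and lower were 18 and 1 for PF+3%PEGDA against PF, 11 and 0 for PF+2%PEGDA against PF, 7 and 3 for PF against 2D, 16 and 2 for PF+2%PEGDA against 2D, and 18 and 3 for PF+3%PEGDA against 2D. With total counts, 5 were higher in PF than in 2D, and 0 were lower with 3% PEGDA than in 2D. With the length and GC trend removed, 1 was lower in PF than in 2D. The same setting gave 6 genes higher with 3% PEGDA than in PF, in place of 4, with DHCR7 and NPC1 added at log2 ratios of 1.05 and 1.09. Without CYP51A1, the 1 member with 50% or more shared stretches, 3 were higher.

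Of the related genes, 58 were tested, and their calls at 1.5-fold are given beside the share of all genes. The 3% PEGDA gel had 7 higher than PF (10.7% of all genes) and 2 lower (15.4%). The 2% PEGDA gel had 7 higher than PF (8.52%) and 1 lower (11.4%). Relative to 2D, the PF gel had 9 higher (25.5%) and 14 lower (22.6%). The 2% PEGDA gel had 8 higher than 2D (20.3%) and 10 lower (18.7%). Total counts gave 1 higher for PF+3%PEGDA against PF. The trend removed gave 0 lower there and 2 higher for PF against 2D. With no filter 3 were higher for PF+2%PEGDA against PF and 2 lower for PF+3%PEGDA against PF+2%PEGDA. A filter of 5 CPM gave 0 for both. Their median log2 ratio to 2D changed sign with total counts, to 0.13 in PF, 0.05 with 2% and 0.0857 with 3% PEGDA. With 3% PEGDA it also did with no filter (0.0318) and with the 5 CPM filter (0.0908).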
